A study of Mus musculus with 4 samples.

Results

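The adipogenic transcription factors Cebpa, Cebpb, Cebpd, Pparg, Ppara, Rxra, Nr1h3 and Srebf1 were followed in epididymal white fat of mice given CL 316243, a drug that stimulates the β3-adrenergic receptors of fat cells selectively. The members were the probe sets whose single gene symbol in the array's annotation was one of these 8 names. All 8 genes had such a probe set, 9 in all, of which Rxra had 2, among 12422 probe sets against transcripts and 8251 named genes. The RNA came from male C57 BL6 mice 3 to 4 months old. It was pooled within each of 4 groups and measured on 1 Affymetrix expression array per group. The groups were control mice and mice treated for 1 day, 3 days or 6 days with CL 316243 at 3 nmol/hr. The sources used here do not state how many mice a pool holds, how the drug was delivered, the handling of control mice or the hour of collection. Each group is 1 array, so differences are given as values without replicates and without p-values.

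These factors form the core of the fat cell transcription programme. In the textbook order of adipogenesis, the basic leucine zipper proteins C/EBPβ and C/EBPδ, encoded by Cebpb and Cebpd, appear early after a hormonal stimulus that includes cAMP. They switch on Pparg and Cebpa, which then maintain each other and the genes of the mature fat cell. The nuclear receptors PPARγ, PPARα and LXRα (Nr1h3) bind DNA as heterodimers with RXRα, and Srebf1 encodes a membrane-bound activator of lipogenic genes. Several of these factors, among them Cebpa, Cebpb, Cebpd and Nr1h3, are also expressed in myeloid cells. Whole fat thus holds more than 1 source of their transcripts. In such a pooled tissue RNA, fewer cells of a type and less RNA per cell cannot be told apart.

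The 250 bases before the RefSeq transcription start (GRCm38.p6) are shown for the genes that passed 2-fold against control on a treated day, to set their regulatory letters beside their time courses. Capitals mark TGACG, the core of the cAMP response element, TTGCNNAA, a C/EBP-type motif, and the CCAAT and TATAAA boxes, each searched on both strands. Pparg has 3 windows in the table, and the third is shown because it holds the C/EBP-type letters.
Cebpb: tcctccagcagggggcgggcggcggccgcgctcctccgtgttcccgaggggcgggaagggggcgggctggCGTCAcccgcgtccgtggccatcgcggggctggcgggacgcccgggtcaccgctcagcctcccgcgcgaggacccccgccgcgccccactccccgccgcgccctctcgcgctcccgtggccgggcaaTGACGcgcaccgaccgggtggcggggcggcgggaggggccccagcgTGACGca
Cebpa: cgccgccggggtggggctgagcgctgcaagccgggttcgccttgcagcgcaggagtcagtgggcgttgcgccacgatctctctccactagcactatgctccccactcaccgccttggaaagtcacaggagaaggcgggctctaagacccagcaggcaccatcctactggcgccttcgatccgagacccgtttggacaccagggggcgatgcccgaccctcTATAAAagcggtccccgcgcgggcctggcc
Pparg: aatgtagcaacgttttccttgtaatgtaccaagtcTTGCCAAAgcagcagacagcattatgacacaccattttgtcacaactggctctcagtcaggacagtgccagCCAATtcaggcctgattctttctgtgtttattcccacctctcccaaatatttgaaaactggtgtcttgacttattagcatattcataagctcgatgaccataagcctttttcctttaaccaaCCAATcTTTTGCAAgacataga
Ppara: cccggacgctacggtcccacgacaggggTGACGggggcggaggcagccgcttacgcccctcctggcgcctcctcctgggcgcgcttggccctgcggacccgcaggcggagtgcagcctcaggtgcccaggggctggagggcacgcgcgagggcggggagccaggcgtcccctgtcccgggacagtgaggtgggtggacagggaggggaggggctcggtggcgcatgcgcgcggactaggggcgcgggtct
The windows lie at chr2:167688665-167688914 for Cebpb, chr7:35119043-35119292 for Cebpa, chr6:115421816-115422065 for Pparg and chr15:85735526-85735775 for Ppara, all on the plus strand. The Cebpb window held 3 matches to TGACG, beginning 180, 53 and 7 bases before the start, the first of them on the minus strand. A window with 1 or more such matches was found among 17.8% of 32851 windows of that length in the table, and one with 3 or more among 0.688%. These shares are over windows of any base content, whereas 81.6% of the Cebpb window was G or C. They do not tell how rare the letters are among windows of like content. The Pparg window held 2 matches to TTGCNNAA, beginning 215 and 16 bases before the start. This motif was present in 9.56% of all windows. The Pparg window was picked for these letters, which the other Pparg windows lack, so the share gives no measure of how rare they are here. The Cebpa window held neither motif and had a TATAAA box beginning 30 bases before the start, as 12.4% of windows had anywhere. The Ppara window held 1 TGACG, which began 222 bases before the start. The full palindrome TGACGTCA, present in 1.55% of windows, was not among the letters of the 13 windows found for 7 of the 8 genes. The windows of 1 gene can overlap, and a match describes letters and shows no binding.

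The values are scaled array intensities on a linear scale, and each probe set was compared only with itself across arrays. Values below a floor of 174 units, the 40th percentile, were raised to it before ratios were formed, and a gene was called higher or lower when 2 arrays differed at least 2-fold. Of 8251 genes, 6254 lay above the floor on at least 1 array, and all 8 factors lay above it on all 4. The measurement error was estimated from 651 genes with a pair of probe sets. 3 such errors came to 2.0-fold for day 1 against control, 1.71-fold for day 3 and 1.64-fold for day 6. They came to 1.79-fold for day 3 against day 1 and 1.64-fold for day 6 against day 3. This error holds no variation between animals or pools. The 4 arrays had deposited medians of 315 to 316 and between 59.9% and 60.1% of probe sets above the floor. All 11 fat cell markers on the array lay above the floor on every array. Lcn5 and Adam7, which are epididymal genes, set the control and day 6 arrays apart from the other two. Lcn5 was at 3322 in control, 63 at day 1, 7 at day 3 and 8031 at day 6, and Adam7 at 2655, 200, 251 and 1847 in the same order. The part of this epididymal signal in the results below was not tested.

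At day 1 the factors moved in opposite directions: Cebpb was 4.28-fold higher than in control, Pparg was 3.75-fold lower and Cebpa was 2.02-fold lower. The other 5 factors were within 2-fold of control. By day 3 all 8 were within 2-fold, and at day 6 Ppara alone was called, at 2.29-fold higher. The count of 1 factor of 8 higher at day 1 stands beside 7.5% of all genes above the floor, and the 2 of 8 lower beside 8.36%. At day 3 the 0 higher and 0 lower stand beside 3.81% and 3.26% of genes. At day 6 the 1 higher and 0 lower stand beside 1.73% and 1.63%. The median log2 change of the 8 factors was -0.34, -0.07 and 0.06 on the 3 days, against -0.02, 0.00 and 0.00 for all genes. From day 1 to day 3, 1 of the 8 was higher (Pparg) and 2 were lower (Cebpb and Cebpd), beside 5.84% and 6.28% of all genes, and from day 3 to day 6 the 0 higher and 0 lower stand beside 1.5% and 2.65%.

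**Figure D1:**
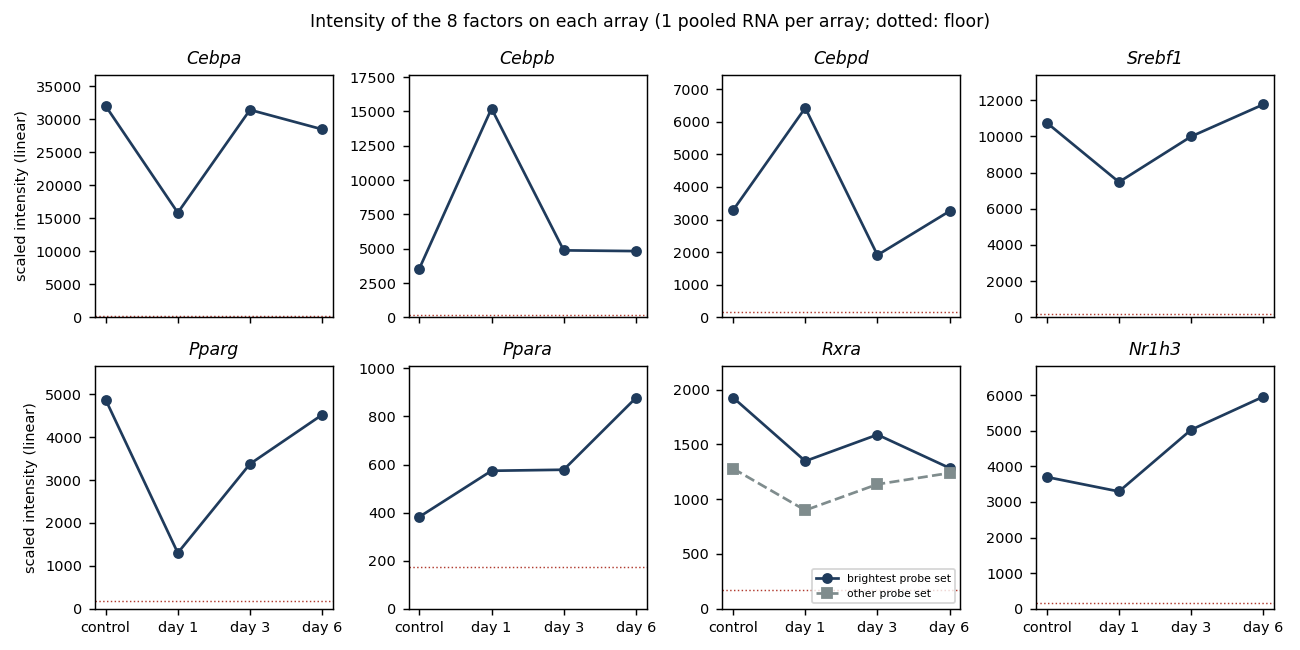
Scaled intensity (linear axis from 0) of each of the 8 factors on the control, day 1, day 3 and day 6 arrays, with 1 point per array and a dotted line at the floor of 174. Cebpb and Cebpd peak at day 1, Pparg and Cebpa are lowest at day 1, Ppara and Nr1h3 are highest at day 6, and the other Rxra probe set is drawn in grey.

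Cebpb, which encodes the early adipogenic and acute phase regulator C/EBPβ, was measured at 3551 in control fat, 15203 at day 1, 4879 at day 3 and 4826 at day 6. The day 1 array stood apart from the other three, which lay within 3 errors of their neighbours. The day 1 change of 2.10 on the log2 scale was exceeded by the rise of 113 of the 6254 genes. Between day 1 and day 3 it fell 3.12-fold, a log2 change of -1.64. The log2 change against control was 0.46 at day 3 and 0.44 at day 6, inside 3 errors of each comparison.

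Cebpd, which encodes C/EBPδ, the partner of C/EBPβ in early adipogenesis and in the acute phase response, was measured at 3284 in control fat, 6423 at day 1, 1910 at day 3 and 3259 at day 6. Its highest array was the same as that of Cebpb, and its lowest was day 3. The day 1 level was 1.96-fold that of control, a log2 difference of 0.97 that did not reach 2-fold and lay within 3 errors. The day 3 level was 1.72-fold below control, just past the 3-error limit of 1.71-fold. From day 1 to day 3 Cebpd fell 3.36-fold, a log2 change of -1.75, and 116 of 6254 genes fell further over that interval. Day 6 lay 1.71-fold above day 3, past the 3 errors of that comparison, and within 0.01 of control on the log2 scale.

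Cebpa, which encodes C/EBPα of the mature fat cell, was measured at 32051 in control fat, 15864 at day 1, 31453 at day 3 and 28502 at day 6. The day 1 array was low and the other three differed by less than the error. The fall at day 1 was a log2 change of -1.01, at the edge of both the 2-fold threshold and the 3-error limit of 2.0-fold. With quantile normalization of the arrays the change was -0.95 and was no longer called. From day 1 to day 3 the log2 change was 0.99, a 1.98-fold difference that exceeded 3 errors, while the 1.8-fold gap of day 6 to day 1 did not.

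Pparg, the nuclear receptor that directs fat cell differentiation, was measured at 4876 in control fat, 1302 at day 1, 3376 at day 3 and 4522 at day 6. Its day 1 level lay below all others, and control, day 6 and day 3 did not differ by more than 3 errors from one to the next. The log2 change at day 1 was -1.91, and 98 of the 6254 genes fell further. Between day 1 and day 3 Pparg rose 2.59-fold, and day 6 was 1.34-fold above day 3, within 3 errors. The single Pparg probe set does not separate the transcripts of the different Pparg starts.

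**Figure D2:**
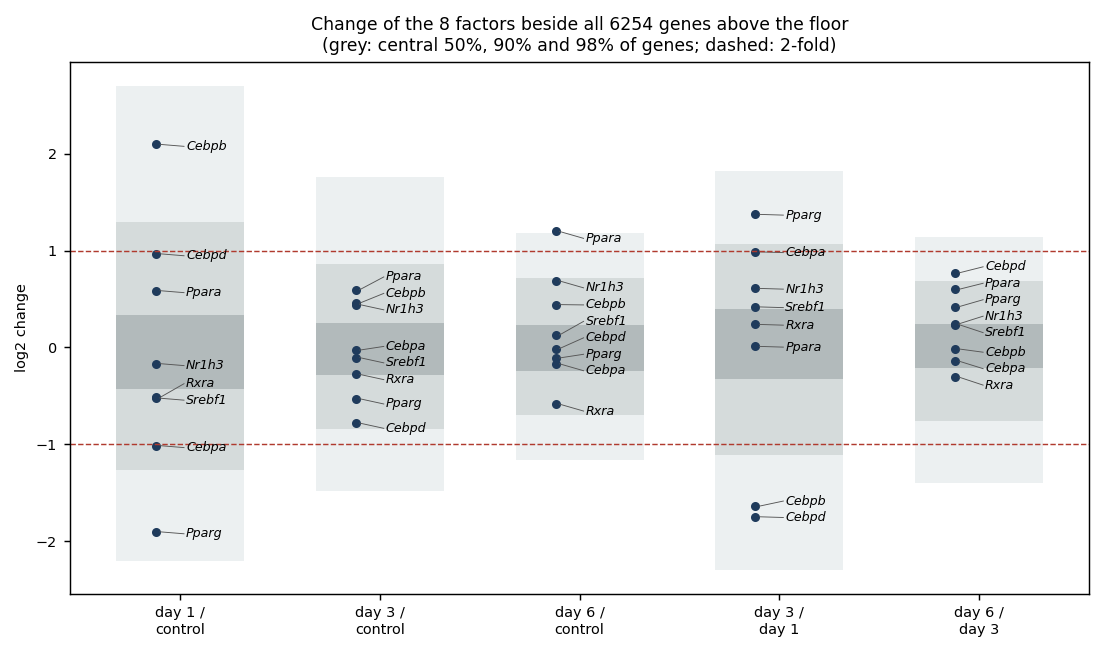
Log2 change of each factor (points) in 5 comparisons, beside grey bands that hold the central 50%, 90% and 98% of the 6254 genes above the floor; dashed lines mark 2-fold. At day 1 Cebpb (2.10) and Pparg (-1.91) lie outside the central 90%, and at day 6 Ppara (1.20) lies above the 98% band.

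The fall of Pparg and Cebpa at day 1 was set beside 11 fat cell markers on the same array. These markers had a median log2 change of -0.66 at day 1, and their summed intensity was 165657 at day 1, against 290016 in control. Only Lep, Nnat and Slc2a4 of the 11 fell further than Pparg, and 4 fell further than Cebpa. At day 6 the markers' median was 0.12, and their sum was 286567, against 290016 in control. At that time 2 of the 11 were still lower, Nnat at 2543, against 27864 in control, and Lep by 3.81-fold. Whether fat cell content has a part in the changes of Pparg and Cebpa was not tested.

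Leukocyte markers were also high on the day 1 array where Cebpb peaked. The summed intensity of 13 neutrophil markers was 83372 at day 1, against 4236 in control, and then 5267 at day 3 and 3711 at day 6. S100a8 at 40273 and S100a9 at 26706 made up most of the day 1 sum. Of the 12 neutrophil markers above the floor, 7 were higher and 2 lower at day 1, the lower ones being the granule protease genes Prtn3, at least 4.36-fold, and Elane, 2.04-fold. Csf3r was within 2-fold by its brightest probe set, the one counted here. Its other probe sets were below the floor in control, at 5701 and 4000 at day 1, and at 12 and 218 at day 3. The summed intensity of 20 macrophage markers was 161464 at day 1 and 167025 at day 3, against 73294 in control, and 87337 at day 6. In control, 7 of the 13 neutrophil markers, S100a9 and Ly6g among them, were at or below the floor, and 2 of the 20 macrophage markers were (Fcer1g and Msr1). From day 1 to day 3, when Cebpb and Cebpd fell, 7 of the 12 neutrophil markers were lower and 1 higher. Of the 20 macrophage markers, 4 were lower and 2 higher over that interval, the lower ones being Fcer1g, Cd14, Itgam and Msr1. The part of either cell type in the Cebpb and Cebpd changes was not tested.

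**Figure D3:**
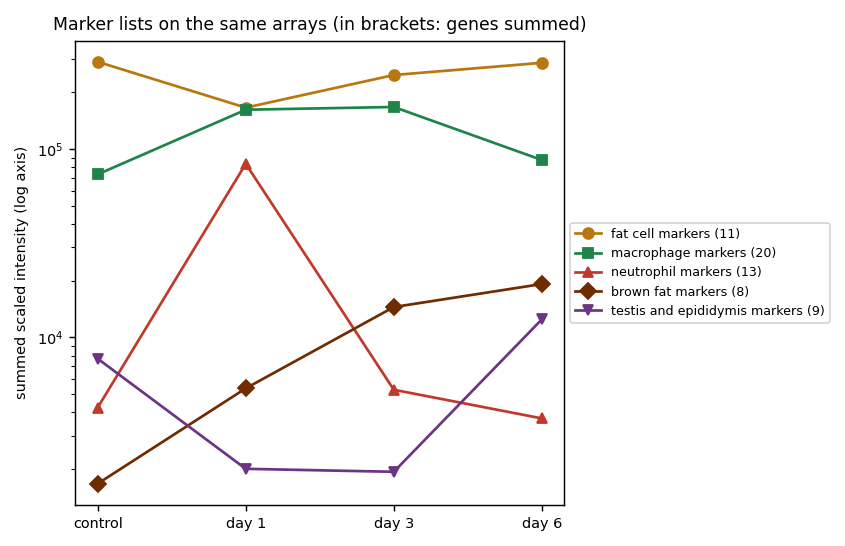
Summed scaled intensity (log axis) of 5 marker lists on the control, day 1, day 3 and day 6 arrays, with 1 point per array. Neutrophil markers peak at 83372 at day 1, macrophage markers stay high at days 1 and 3, fat cell markers are lowest at 165657 at day 1, and the testis and epididymis list is low on days 1 and 3.

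Ppara, the PPAR of fatty acid oxidation, is typical of liver and brown fat. It was measured at 382 in control fat, 574 at day 1, 578 at day 3 and 877 at day 6. All 3 treated arrays lay above control, and each neighbouring pair in the order of levels was within 3 errors. The day 6 change of 1.20 on the log2 scale was called and exceeded 3 errors, and 58 of the 6254 genes rose more. The levels are low, and when the floor was raised to 537 units (60th percentile) its day 6 change was 0.71 and was not called. Of 6 brown fat markers above the floor, 2 were higher at day 1, 5 at day 3 and 5 at day 6, and their median log2 change on the last day was 2.14. Cox8b, a muscle and brown fat cytochrome oxidase gene, was at 15477 at day 6, against 1002 in control. The uncoupling protein gene Ucp1, below the floor in control, was at 3054 at day 1, 1502 at day 3 and 1190 at day 6. From day 3 to day 6, when Ppara rose 1.52-fold, 1 of the 6 markers had a log2 change above 0 and 5 below. Their median over that interval was -0.30. The part of brown fat cells in the Ppara change was not tested.

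Rxra, the shared heterodimer partner of the PPAR and LXR receptors, was measured by its brighter probe set at 1926 in control fat, 1347 at day 1, 1588 at day 3 and 1283 at day 6. The second probe set gave 1279 in control, 898 at day 1, 1136 at day 3 and 1238 at day 6. Both lay below control at day 1, by log2 differences of -0.52 and -0.51, within 3 errors and within 2-fold. At day 6 they gave -0.59 and -0.05, so that the low day 6 value rests on 1 of the 2 probe sets.

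Nr1h3, which encodes the oxysterol receptor LXRα, was measured at 3700 in control fat, 3294 at day 1, 5028 at day 3 and 5957 at day 6. The day 1 level was the lowest and day 6 the highest, and each neighbouring pair lay within 3 errors. At day 6 the log2 change was 0.69, a 1.61-fold difference, just under the 3-error limit of 1.64-fold. Srebf1, the lipogenic SREBP gene, was measured at 10752 in control fat, 7475 at day 1, 9994 at day 3 and 11764 at day 6. Its day 1 log2 change of -0.52 was within 3 errors, and so was each gap between neighbouring levels. Across the 4 arrays the highest level was 1.81 times the lowest for Nr1h3, 1.57 times for Srebf1 and 1.5 times for Rxra. For Cebpb, Pparg and Cebpd this range was 4.28, 3.75 and 3.36.

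Genes known as targets of these factors were grouped in 6 lists, which describe the arrays and test no link to a factor. The lipogenic targets of SREBP1 were the most uniform at day 1, with 8 of 11 lower and 0 higher and a median log2 change of -1.31. Thrsp, a lipogenic regulator, was at 2212 at day 1, against 34372 in control. The fatty acid synthase gene Fasn was at 4954, against 31668, and the desaturase gene Scd2 at 3865, against 13600. The elongase gene Elovl6 was 3.27-fold lower and the malic enzyme gene Me1 2.56-fold lower. At day 3, 1 of the 11 (Elovl6, 2.10-fold) was lower, and at day 6 0 were. The Srebf1 transcript stayed within 2-fold throughout, as read by 1 probe set that may not separate the different Srebf1 starts. The part of Srebf1 in the changes of these genes was not tested.

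The PPARγ targets of fat cells had a median log2 change of -0.42 at day 1, with 2 of 16 lower and 1 higher. The lower genes were Slc2a4, the insulin-responsive glucose transporter, at 648, against 4055 in control, and the adipokine gene Adipoq at 25354, against 52054. The triglyceride-forming enzyme gene Dgat1 was 2.61-fold higher. At day 3 and at day 6 only the fatty acid transport protein gene Slc27a1 of the 16 was called, at 3.4-fold and 3.13-fold higher. At day 6, 15 of the 16 had a log2 change above 0, with a median of 0.26. Of the 8 C/EBPα targets above the floor, 1 stands on no other list. At day 1, 3 of them were lower, Lep (leptin) by 11.5-fold along with Slc2a4 and Adipoq. At day 6, 1 was still lower, Lep at 4841, against 18452 in control.

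Of 16 PPARα targets above the floor, 5 were higher and 1 lower at day 1, 6 higher and 0 lower at day 3, and 6 higher and 0 lower at day 6. Their median log2 changes were 0.52, 0.79 and 0.68 on the 3 days. Pdk4, a kinase that inactivates pyruvate dehydrogenase, was at 1006 in control, 3248 at day 1, 3022 at day 3 and 3492 at day 6. The gene lower at day 1 was Hadh, a mitochondrial β-oxidation dehydrogenase, at 4912, against 10348 in control. Other β-oxidation genes of the list lay below control at day 1 without passing 2-fold, among them Acaa2 at a log2 change of -0.80 and Acadm at -0.66. The acyl-CoA dehydrogenase gene Acadl was 3.11-fold higher at days 3 and 6, and the peroxisomal thiolase gene Acaa1b 3.71-fold, 5.63-fold and 3.37-fold higher on the 3 days. The thioesterase gene Acot1, below the floor in control, was at least 5.87-fold higher at day 1 and at least 2.34-fold higher at day 3. The lipid droplet coat gene Plin2 was 3.05-fold higher at day 1 and at 12416 at day 6, against 13067 in control. Several of these genes were higher at day 1, when Ppara was at 574, against 382 in control, a difference within 2-fold. The part of Ppara in the changes of these genes was not tested.

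LXR targets were mixed at day 1, with 3 of 9 higher, 1 lower and a median log2 change of -0.49. The sterol exporter gene Abcg1 was 2.70-fold higher, the phospholipid-remodelling enzyme gene Lpcat3 2.13-fold higher and the apolipoprotein gene Apoc2 4.53-fold higher, while Apoc1 was 2.81-fold lower. At day 3, 4 of 9 were higher and 0 lower, with a median of 0.52, and the phospholipid transfer protein gene Pltp was at 14007, against 6809 in control. The median is the value of Abca1 by its brighter probe set, the one counted here. The second, dimmer Abca1 probe set, named after its values were seen, gave a log2 change of 1.41 at day 3, past 2-fold. At day 6 all 9 had a log2 change above 0, with a median of 0.66 and 2 past 2-fold, Apoc2 at 3.06-fold and Apoc1 at 2.32-fold. Several LXR targets are also macrophage genes. The macrophage marker sum was 161464 at day 1, 167025 at day 3 and 87337 at day 6, against 73294 in control. The part of macrophages in the LXR target changes was not tested.

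Of 12 inflammatory genes known as targets of C/EBPβ and C/EBPδ, 9 were higher and 2 lower at day 1, and the list's median was 2.0 on the log2 scale. The acute phase gene Saa3 was at 19104 at day 1, against 890 in control, and the chemokine gene Ccl2 at 11798, against 786. The 2 lower genes were also acute phase genes, Lbp at 1004, against 3969 in control, and Orm1 at 1948, against 5982. Il1b, Ptx3 and Il6, a pair of cytokines and a pentraxin, were below the floor in control and at least 75.4-fold, 27.4-fold and 13.7-fold higher at day 1. At day 3, 3 of the 12 were higher and 1 lower, and at day 6, 1 was higher (Saa3, 2.27-fold) and 2 were lower.

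**Figure D4:**
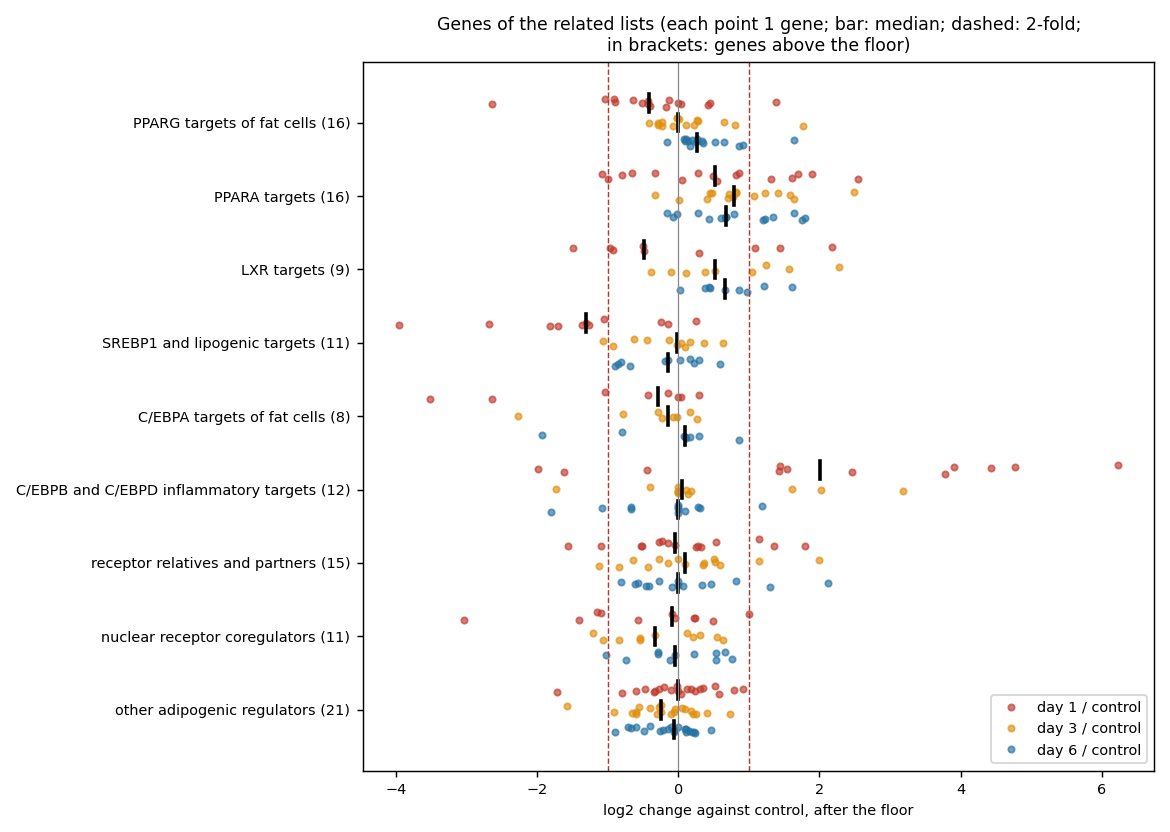
Log2 change against control of each gene above the floor in 9 related lists, at day 1, day 3 and day 6; each point is 1 gene, black bars are list medians and dashed lines mark 2-fold. The day 1 medians are -1.31 for lipogenic targets and 2.0 for inflammatory C/EBP targets, and the PPARα target medians stay between 0.52 and 0.79.

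Of 11 genes for nuclear receptor coregulators above the floor, 4 were lower and 1 higher at day 1, and 6 were within 2-fold. Nrip1, the corepressor RIP140 that restrains oxidative genes in white fat, was at 1750 in control, 214 at day 1, 754 at day 3 and 1435 at day 6. It was 8.19-fold lower at day 1 and 2.32-fold lower at day 3. The coactivator gene Cited2 was 2.65-fold lower at day 1 and 2.10-fold at day 3. The acetyltransferase gene Crebbp and the coactivator gene Ncoa1 were 2.23-fold and 2.14-fold lower at day 1, and Tob1 was 2.0-fold higher. The Tob1 rise lay at the edge of the 2-fold threshold and within 3 errors. At day 6, 1 of the 11 was called, the Mediator subunit gene Med1 at 2.03-fold lower.

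Among 15 other nuclear receptor genes above the floor, 3 were higher and 2 lower at day 1. The clock receptor genes Nr1d1 and Nr1d2, which encode the REV-ERB repressors, were higher on all 3 treated days. Nr1d2 was at 326 in control, 1134 at day 1, 1295 at day 3 and 1414 at day 6, and Nr1d1 at 825, 1831, 1830 and 2027 in the same order. These genes cycle with the time of day, and the hour of collection is not known here. The orphan receptor gene Nr4a1, a cAMP-responsive early gene, was 2.57-fold higher at day 1. The thyroid hormone receptor gene Thra was 2.97-fold lower at day 1, and the glucocorticoid receptor gene Nr3c1, which fell to the floor, was at least 2.13-fold lower. A second, much dimmer Thra probe set went the other way within 2-fold, at 303 at day 1, against 209 in control. At day 3, Nr2f2, an inhibitor of adipogenesis, was 2.18-fold lower.

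For the 4 factors called against control, the genes closest in their course over the 4 arrays were found by the distance between log2 profiles centred on their means, among 4815 genes. For Cebpb these were Pex5, Fgr, Nfkb2, Lrrfip1 and Ttc39b, at distances from 0.11 to 0.26, and 23 genes lay within 0.5. For Pparg they were Gstk1, Aamdc, Ctsf, Zbtb20 and Sqor, at 0.14 to 0.19, with 102 genes within 0.5. For Cebpa they were Sfxn1, Sgcd, Pmp22, Phpt1 and Rab4a, at 0.04 to 0.08, and 566 genes lay within 0.5. For Ppara they were Ankrd28, Psma1, Ucp3, Ptges2 and Hdac6, at 0.17 to 0.24, with 101 genes within 0.5. These distances describe 4 arrays and say nothing of shared control.

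**Figure D5:**
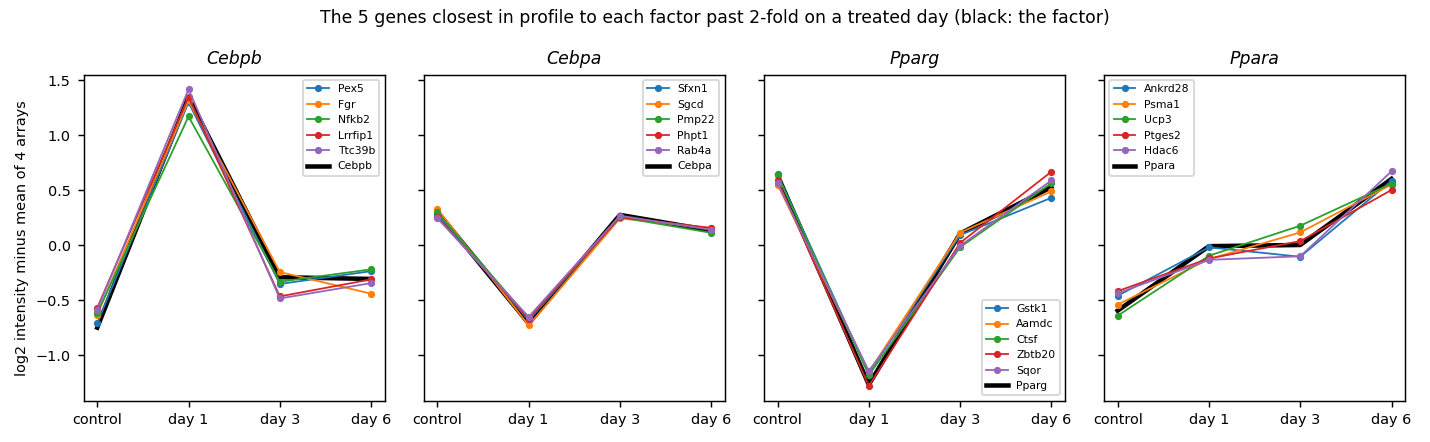
Log2 intensity minus the mean of the 4 arrays, for Cebpb, Cebpa, Pparg and Ppara (black) and the 5 genes closest in profile to each (colours), on the control, day 1, day 3 and day 6 arrays. The Cebpb group peaks at day 1, the Cebpa and Pparg groups are lowest there, and the Ppara group is highest at day 6.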

How the data were processed

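The values the authors deposited are array intensities per probe set on a linear scale, in whole numbers, for 4 arrays, and 12.1% to 12.4% per array are at or below 0. The sources used here do not name the authors' software, background step or normalization. 66 control probe sets were left out. Arrays were brought to 1 mean, taken between their 2nd and 98th percentiles (factors 0.998 to 1.001), floored at the 40th percentile and put on the log2 scale, with Python 3.11.15, numpy 2.4.6 and pandas 2.3.3. Where the dimmer value lay at the floor, the fold is a lower bound. The 10833 probe sets with 1 symbol were used, and the brightest on average stands for a gene; 396 with several symbols and 1193 not listed were not named. No test was possible with 1 array per group. The measurement error is the scaled median absolute deviation of the difference in log2 change between the 2 brightest probe sets of a gene, divided by √2. The method was checked on simulated data with changes well past 2-fold in bright probe sets. That check did not cover true changes near 2-fold or in dim probe sets.

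The members and the 11 pathway and 10 marker lists were chosen with earlier results of these data known. Named genes are all members, up to 5 genes per pathway list and 3 per marker list, taken by size of change beyond 2-fold with a brighter value of at least 2 times the floor, every gene past 2-fold in 4 lists of receptors, coregulators and C/EBP and SREBP genes, and the 5 closest profiles. Promoter sequences are RefSeq's; Cebpd had no entry. Other scalings, floors, probe set rules and thresholds were tried.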

Additional observations from a re-analysis of the deposited data

Results flagged for a closer look

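Cebpd went in opposite directions on 2 treated days, with a log2 change against control of 0.97 at day 1 and -0.78 at day 3, each larger than 1 measurement error. The day 1 change lay within 3 errors, and the day 3 change was just past them. The difference between the days has 1 array on each side and was not tested.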

How the results depend on the processing

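The alternatives were no scaling, quantile normalization, floors at the 25th and 60th percentiles, the mean of a gene's probe sets, the other Rxra probe set, lists without genes that stand on another list, and thresholds of 1.5-fold and 3-fold. Of 203 recomputed changes of the 8 factors, 2 changed their call (Cebpa at day 1 and Ppara at day 6, given above) and 0 of those past 2-fold turned sign. Most of these recomputations could hardly differ, so the count is no measure of robustness. All 8 factors lay above the floor on every array, so the lower floor left their changes as they were. The scaling factors were 0.998 to 1.001, only Rxra had 2 probe sets, and the higher floor reached only Ppara. At 1.5-fold, 3, 1 and 2 factors were higher on days 1, 3 and 6, and 1 was lower on day 3 and 1 on day 6. The 1 lower on day 6 was Rxra, at a log2 change of -0.586 by its brighter probe set, while its second gave -0.05. At 3-fold, 0 were higher at day 6 and 1 was lower at day 1. Shares of all genes are given only at 2-fold, so the counts at 1.5-fold and 3-fold have no background beside them. Ppara passed 1.5-fold at days 1 and 3, where 990 and 599 of the 6254 genes rose more. With the floor at the 60th percentile 0 were higher at day 6, and with quantile normalization 1 was lower at day 1. List medians moved by more than the measurement error in 35 recomputations and by less in 343. The day 1 median of the inflammatory C/EBP targets was 1.54 with the lower floor and 1.13 with the higher one, and that of the LXR targets was 0.00 with the higher one. For Ppara, 2 of the 5 closest genes remained with the lower floor. The floor sets which genes enter a list median or the profile search, and how large a fold at the floor can be. The part of the floor in each shift was not tested. Signal near background limits Ppara most. No paired analysis was possible because each group has 1 array.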

Other observations

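Of 21 on a list of further adipogenic regulators, 1 was lower at day 1, the fat precursor factor gene Ebf2, at 348, against 1146 in control. At day 3 1 was lower, Klf2, an inhibitor of Pparg, at least 2.97-fold. Of the remaining C/EBP genes, Ddit3, the stress-induced dominant inhibitor CHOP, was at 667 in control, 1053 at day 1, 440 at day 3 and 447 at day 6, and Cebpg at 1312, 911, 841 and 1218 in the same order; both were chosen for their family and within 2-fold of control on each day. Of the SREBP pathway genes, Mbtps1, the protease that releases SREBP, was the 1 above the floor, with log2 changes of -0.36, -0.25 and -0.21. For Vdr, the vitamin D receptor gene, named after its values were seen, the second probe set was at 401 at day 1 and below the floor on the other arrays.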
